A study of Mus musculus with 26 samples.

Results

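Of 315 assay positions in a mouse microRNA (miRNA) panel measured by stem-loop RT-qPCR, 48 were selected on measured levels that were higher in induced pluripotent stem cells (iPSC) and embryonic stem cells (ESC) than in fibroblasts, islets and hepatocytes. The measurement is the threshold cycle (Ct), the PCR cycle at which an assay's fluorescence crosses a set threshold, so that a lower Ct means more RNA. The level of an assay in a sample was the mean Ct of a common set of assays in that sample minus the Ct of the assay, the set being those that stayed below 35 in all 26 samples. Level is thus on a log2 scale, on which 1 unit is a doubling if each PCR cycle doubles the product. A missing Ct, or one beyond 35, counted as 35. An assay was kept when the medians of level in untreated iPSC, ESC, fibroblasts, islets and hepatocytes spanned at least 3 units, and when the lower of the iPSC and ESC medians lay at least 1 unit above the highest of the other medians. These thresholds were met by 58 positions. Positions B71 to B77, A79, C29, C64, C61 and B95 were set aside, 10 of which met them, which leaves 48. The assays were thus chosen by the medians of these groups, and levels that follow from them are given as a description and without a test. The files name the assays by plate position only, and no miRNA name or sequence is given for any of them here.

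miRNAs are short RNAs that guide Argonaute proteins to partly complementary sites in messenger RNAs and lower their translation and stability. Mouse pluripotent cells are known for a small number of abundant miRNA families that share a seed and favour a rapid cell cycle, and these are largely silenced when the cells differentiate. Reprogramming of fibroblasts switches such families on again, while miRNAs typical of fibroblasts decline. Which of the 48 positions belongs to which family is not analysed here.

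The cells called pluripotent here, by origin, were 4 samples of iPSC treated with activin A at 100 ng/ml for 5 days, 2 each from clones 2 and 3, 5 untreated iPSC clones, and 6 ESC samples, 3 of line D3 and 3 of line R1. Activin A is a TGF-beta family ligand used to steer pluripotent cells towards endoderm. They were set against 5 samples of tail-tip fibroblasts, the parent cells of the clones, 3 of primary pancreatic islets and 3 of primary hepatocytes, the islets and hepatocytes from adult C57BL/6 mice. Untreated iPSC and ESC grew on inactivated embryonic feeder fibroblasts with leukemia inhibitory factor, whereas treated iPSC were freed of feeders and kept on gelatin in medium with little serum, so activin and the change of culture cannot be told apart. One label field gives the activin concentration per microlitre. Beyond the clone numbers, nothing in the labels tells separate cultures or animals from repeats of 1 source, so p-values reflect the scatter of the samples in hand, part of which can be technical. In such bulk samples, fewer cells of a type and less RNA per cell cannot be told apart. The cell types were not checked against marker miRNAs, since the positions are unnamed. Whether treated iPSC were still pluripotent was therefore not tested.

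The number of positions with a Ct below 35 ranged from 267 to 276 in treated iPSC, from 242 to 275 in untreated iPSC and from 241 to 270 in ESC. It was 187 to 272 in fibroblasts, 267 to 273 in islets and 210 to 219 in hepatocytes. Fibroblast replicate 5 held the lowest count, 187, and its mean reference Ct over plates A and B, 29.9, was the highest of the 26 samples. Some values were very early for a PCR signal. Of 24 values below 14 cycles in the table, 3 belong to the 48 assays, namely D08 in fibroblast replicate 4 at 2.74, A34 in hepatocyte replicate 1 at 10.4 and A09 in the same sample at 13.4.

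Across the 48 assays the distance between the lower pluripotent median and the highest differentiated median, called the gap here, ran from 1.04 to 4.96 units with a median of 2.20, a 4.60-fold difference. It lay below 2 units in 20 assays, between 2 and 3 in 16, between 3 and 4 in 8 and above 4 in 4. The enrichment is therefore mostly moderate. As a group the assays were easily measured in pluripotent cells. Their median Ct in untreated iPSC ran from 20.7 to 31.7 with a median of 26.1, against 29.5 for the median of all 315 positions. A Ct below 35 was present in 99.5% of their values in treated iPSC, 99.2% in untreated iPSC and 99.3% in ESC, against 87.9% in fibroblasts, 93.1% in islets and 69.4% in hepatocytes. Over all positions these shares were 86.3%, 81.7%, 82.2%, 75.5%, 85.5% and 68.4%.

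On the scale of the mean Ct the higher level in pluripotent cells is what chose the assays. Untreated iPSC and fibroblasts were therefore also compared relative to another reference. Their values helped to choose the assays, so the counts below are tilted by the choice and are no independent check. The authors normalized to the small nuclear RNA RNU6, whose Ct per sample was recovered from their deposited differences, which hold no ESC. On that scale ESC have no value, and islets and hepatocytes have a separate zero, so none of these was set against iPSC. Relative to RNU6, 29 of the 48 assays had a higher median in untreated iPSC than in fibroblasts, with a median difference of 0.42 units, and 19 had a lower one. Over all 315 positions 82 were higher in iPSC on that scale, and the median difference was -2.06. On the mean Ct scale the median differences were 3.24 for the 48 assays, where the choice fixed the direction, and 1.09 for all positions. The sign of the difference from fibroblasts was thus the same on both scales for 29 of the 48. Values in the authors' deposited table are negative where iPSC have more RNA than fibroblasts. There 26 of the 48 are negative and 22 are positive, against 83 negative and 213 positive among all 296 values. The lowest of the 48 in that table were C11 at -5.85, C67 at -5.70, C51 at -4.39 and B35 at -4.29. The highest were B96 at 3.01, D08 at 2.31 and C01 at 2.24. In fibroblasts, C11 and C67 have only Ct values beyond 35, and D08 includes the value of 2.74. In untreated iPSC, B96 includes a value of exactly 36 in clone 4, and C01 a late one of 30.9 in clone 5. Relative to RNU6, their median differences from fibroblasts were -1.03 and -1.89 units, so iPSC were lower by medians too.

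**Figure D1:**
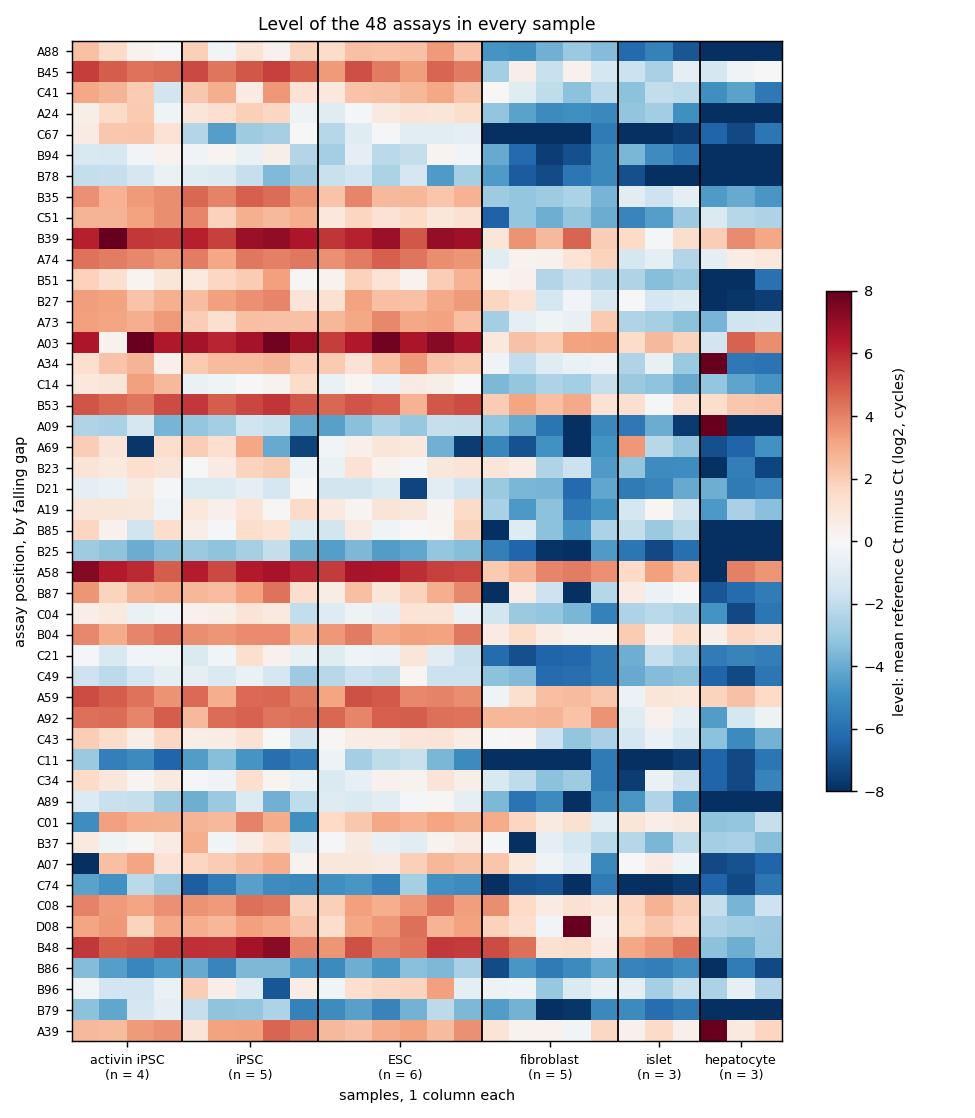
Level of each of the 48 assays (rows, by falling gap) in each of the 26 samples (columns, grouped), as the mean reference Ct minus the assay Ct on a log2 scale from -8 to 8, with late and missing Ct values counted as 35. The 15 columns of treated iPSC, untreated iPSC and ESC are redder than the fibroblast, islet and hepatocyte columns in most rows, and hepatocytes are bluest. Single samples break the pattern, among them some in the rows of A69, A07 and D21. D08 in fibroblast replicate 4 and A34, A09 and A39 in hepatocyte replicate 1 are deep red.

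Among the 48, C67 and C11 had no Ct below 35 in any fibroblast, islet or hepatocyte sample. Over all 315 positions, 4 had none there and a Ct below 35 in every untreated iPSC and ESC sample, C67 and C11 included. C67 had Ct values of 25.5, 23.02, 22.1 and 23.8 in treated iPSC, 30.8, 30.1, 30.3, 27.9 and 25.99 in untreated iPSC, and 26.1 to 29.3 (median 27.9) in the 6 ESC samples. In fibroblasts it had a Ct in 1 of 5 samples, at 37.2, and in islets and hepatocytes in 1 of 3 each, at 36.2 and 36.7. Every pluripotent sample was thus below 31 cycles and every other sample above 36 or without a Ct. C11 was scarcer, with 29.1, 30.6, 29.4 and 31.3 in treated iPSC, 32.9, 29.2, 32.2, 31.3 and 31.5 in untreated iPSC, and 27.5 to 31.1 (median 29.2) in the 6 ESC samples. It had 36.1, no Ct, 37.7, 38.9 and no Ct in fibroblasts, 38.02, 38.7 and no Ct in islets and 38.7, no Ct and no Ct in hepatocytes, so that its differentiated samples were all late or without a Ct. The gaps of C67 and C11, 3.73 and 1.65 units, are bounded by the limit of 35 and depend on it.

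A88 had the largest gap, 4.96 units. Its Ct values were 24.2, 24.5, 26.5 and 25.9 in treated iPSC, 26.1, 27, 26.5, 27.8 and 25.1 in untreated iPSC, and 24.8 to 25.6 (median 25.1) in the 6 ESC samples. Fibroblasts had 30.1, 31.6, 27.02, 29.5 and 33.3, islets 30.96, 30.9 and 33.3, and hepatocytes one late value, 36.4, and otherwise no Ct. The ESC samples lay within 1 cycle of each other, and fibroblast replicate 3 was the one differentiated sample whose raw Ct fell inside the pluripotent range.

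A24 was detected much as A88 was. It had 26.05, 24.4, 24.7 and 26.2 in treated iPSC, 27.02, 25.5, 25.8, 26.5 and 27.3 in untreated iPSC, and 26.01 to 27.9 (median 27.3) in the 6 ESC samples, against 28.5, 31.01, 28.2, 31.4 and 38.1 in fibroblasts and 27.9, 28.3 and 31.4 in islets. In hepatocytes it had 36.5, no Ct and no Ct, all beyond 35. In raw Ct the lowest islet value and the highest ESC value coincided at 27.9, while on the level scale all 11 untreated iPSC and ESC samples lay above all 11 differentiated ones.

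B45 and B35 were abundant in pluripotent cells and still present elsewhere. B45 had 21, 21.1, 22.5 and 21.4 in treated iPSC, 22.7, 22.5, 22.7, 22.7 and 22.1 in untreated iPSC, and 22.3 to 24.7 (median 23.4) in the 6 ESC samples, against 28.1, 26.2, 24.9, 26.1 and 31.3 in fibroblasts, 26.5, 28.1 and 27.2 in islets and 26.95, 27.1 and 26.9 in hepatocytes. The untreated clones lay within 1 cycle of each other, as did the hepatocytes, and no pluripotent sample was as late as the earliest differentiated one, fibroblast replicate 3 at 24.9. B35 had 22.9, 23.2, 23.4 and 22.1 in treated iPSC, 23.4, 22.8, 22.8, 23.7 and 23.4 in untreated iPSC, and 23.6 to 26.2 (median 24.7) in the 6 ESC samples, against 28.2, 29.8, 26.05, 29.01 and 33.6 in fibroblasts, 25.6, 27.2 and 27.2 in islets and 30.1, 30.9 and 31.5 in hepatocytes. For B35 every iPSC sample, treated or not, had a lower Ct than every differentiated sample, and ESC overlapped the lowest islet and fibroblast values.

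C41 was less even among the clones. Treated iPSC had 23.01, 22.4, 22.2 and 26.4, untreated iPSC 26.3, 22.9, 26.8, 21.8 and 24.8, and ESC 23.01 to 26.2 with a median of 24.2. Fibroblasts had 25.3, 26.9, 25.7, 27.2 and 31.4, islets 29.2, 28.6 and 29.4 and hepatocytes 33.5, 32.02 and 34.97. Its raw Ct values overlapped between iPSC and fibroblasts, and the separation of 4.19 units appeared once each sample's mean Ct was taken into account. It depends on that reference, since relative to RNU6 the median difference of untreated iPSC from fibroblasts was -1.04 units. On the mean Ct scale, replicate 2 of treated clone 3, at -1.49, lay within the fibroblast range of -3.26 to -0.04.

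B94 and B78 were later, near the middle of the panel. B94 had 27.7, 27.3, 27.05 and 25.6 in treated iPSC, 28.2, 26.6, 28.2, 27.7 and 29.2 in untreated iPSC, and 27.6 to 29.9 (median 28.7) in the 6 ESC samples, against 29.4, 32.98, 30.7, 33.5 and no Ct in fibroblasts, 28.4, 30.6 and 32.3 in islets and 34.5, 36.1 and 35.4 in hepatocytes. B78 had 28.4, 27.8, 28.1 and 26.4 in treated iPSC, 28.9, 27.9, 29.5, 31.7 and 29.7 in untreated iPSC, and 28.7 to 33.01 (median 29.4) in the 6 ESC samples, against 29.8, 33.4, 30.4, 32.3 and 36 in fibroblasts, 31.8, 34.3 and 36 in islets and 36.5, 38.1 and 39.2 in hepatocytes. Both overlapped with fibroblasts in raw Ct, and the B78 values of exactly 36 in fibroblast replicate 5 and islet replicate 3 recur elsewhere in the table, 75 times in all, so whether they were measured is not known.

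**Figure D2:**
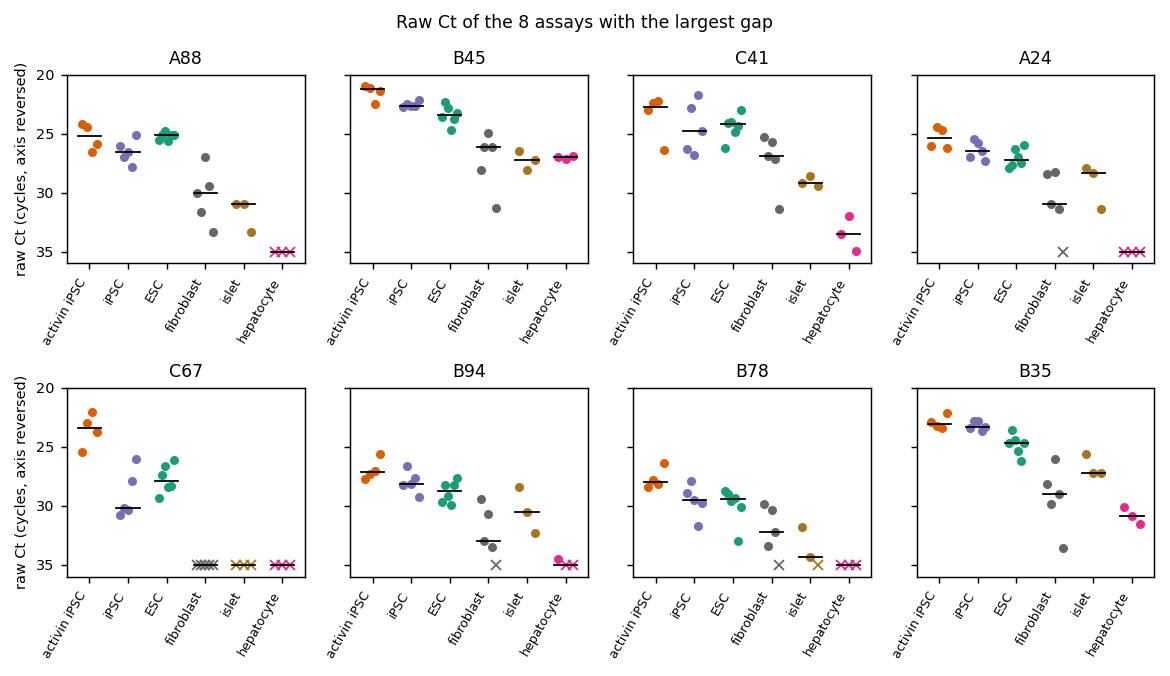
Raw Ct in cycles (axis reversed, so that more RNA is higher) of the 8 assays with the largest gap, 1 point per sample and a line at the group median, with crosses at 35 for samples above 35 or without a Ct. A88, A24 and B78 have crosses for all 3 hepatocyte samples, and C67 has them for all 11 differentiated samples while its 4 treated iPSC samples sit at 25.5 or below.

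The order of abundance within the pluripotent cells was led by A03, B39, A58, B48 and B53, with median levels in untreated iPSC of 6.68, 6.44, 6.26, 5.83 and 5.33 units. The first 4 of these medians differ by less than the SD of level of B48 between clones, 1.27, and assays differ in efficiency, so their order is not an order of copy number. All 5 were also measured in differentiated cells. A03, the highest, had Ct values of 19.3 to 21.5 (median 21.1) in the 6 ESC samples, against 24.5, 24.4, 21.2, 23.3 and 26.6 in fibroblasts, 23.3, 22.9 and 24.6 in islets and 27.04, 22.2 and 23.1 in hepatocytes. Its raw ranges in ESC and fibroblasts overlapped. At the low end stood C74, with a median level of -5.14 in untreated iPSC. C74 had Ct values of 30.2 to 32.3 (median 31.4) in the 6 ESC samples, against 33.5, 32.9, 30.5, 32.5 and 38.97 in fibroblasts, 35.7, 36.3 and 36.3 in islets and 37.02, 38.3 and no Ct in hepatocytes, where no islet or hepatocyte sample was below 35. In all, 24 of the 48 assays had a Ct below 35 in all 26 samples, and these 24 were themselves among the 122 assays that made up the reference mean.

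Hepatocytes had the lowest differentiated median for 30 of the 48 assays, islets for 12 and fibroblasts for 6, against 30.5%, 26.03% and 43.5% of all 315 positions. For C67 and C11, counted under fibroblasts, all 3 groups stood at the limit of 35, and for C74 islets and hepatocytes did, so their order there is set by the limit and the mean Ct. No hepatocyte sample had a Ct below 35 for 10 assays, A88, A24, C67, B78, B25, C49, C11, A89, C74 and B79. In 12 assays (25%) the hepatocyte median lay at least 3 units below those of fibroblasts and islets, against 7.62% of all 315 positions. Among these A07 had 25.1 to 26.6 (median 26.1) in the 6 ESC samples, against 23.1, 25.9, 23.4, 27.3 and no Ct in fibroblasts, 24.8, 24.9 and 26.8 in islets and 32.7, 33.9 and 33.2 in hepatocytes. The hepatocyte level entered the choice of the assays, so this split describes them and is not a comparison of tissues. The closest differentiated group was fibroblasts for 20 assays, islets for 19 and hepatocytes for 9. For C67, C11 and C74 among the 9, hepatocytes rank first only because the values stood at the limit of 35.

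The threshold on the gap divided a continuous range. Just inside it were A39, with a gap of 1.04, and B79, with 1.07, and just outside were B47, with 0.85, and C55, with 0.70. The gap of B79 rests on its fibroblast median of -5.14. That is the level of fibroblast replicate 5, which had no Ct and was counted as 35, so this gap depends on the limit. The gap of A09 does so too, as its fibroblast median is set by a Ct of 35.2 in the same sample. A39 had 23.9, 23.5, 23.4 and 22.2 in treated iPSC, 26.99, 23.6, 24.4, 23.5 and 22.8 in untreated iPSC, and 23.8 to 25.95 (median 24.6) in the 6 ESC samples, against 24.2, 26.5, 22.9, 26.7 and 28.2 in fibroblasts, 24.4, 24 and 26.1 in islets and 17.2, 26.1 and 25.1 in hepatocytes. Its hepatocyte replicate 1 lay far from the other hepatocyte samples, and the raw ranges of all these groups overlapped. B79 had 29.8, 30.1, 28.1 and 26.6 in treated iPSC, 29.8, 30.02, 30.7, 30.6 and 32.3 in untreated iPSC, and 30.6 to 32.4 (median 31.8) in the 6 ESC samples, against 29.8, 30.5, 31.9, 34.3 and no Ct in fibroblasts, 29.8, 31.6 and 32.1 in islets and 37.02, no Ct and 38.6 in hepatocytes, and overlapped with fibroblasts and islets on the raw scale. Outside the threshold, B47 had 28.96, 29.6, 28.4 and 26.8 in treated iPSC, 27.7, 28.2, 29.2, 29.04 and 29.3 in untreated iPSC, and 28.8 to 31 (median 29.8) in the 6 ESC samples, against 30.2, 30.5, 27.8, 34.8 and 34.3 in fibroblasts, 28.1, 29.5 and 28.2 in islets and 28.4, 31.02 and 30.1 in hepatocytes. C55 had 26.3, 25.98, 23.2 and 23.9 in treated iPSC, 27.1, 25.96, 27.8, 25.1 and no Ct in untreated iPSC, and 25.9 to 29.1 (median 28.2) in the 6 ESC samples, against 28.5, 28.3, 29.6, 31.7 and 34.3 in fibroblasts, 27.97, 30 and 29.3 in islets and 31.3, 33.5 and 33.9 in hepatocytes. The raw ranges of both overlapped between pluripotent and differentiated samples, much as those of A39 and B79 did.

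The medians that chose the assays left out the treated iPSC. These samples still helped to define the reference set, which needed a Ct below 35 in all 26 samples. They also came from clones 2 and 3, whose untreated samples entered the choice, so they are no independent check. Levels in treated iPSC stayed above those of the differentiated cells for most assays. Their median level was at least 1 unit above the highest differentiated median for 46 of the 48 assays, against 23.5% of all 315 positions, and the exceptions were B86, at 0.61, and B96, at -0.48. The median of this distance was 2.73 units, against -1.94 over all positions. All 4 treated samples lay above all 11 differentiated samples in 27 of the 48 assays, against 13.3% of all positions. The corresponding count for the 11 untreated iPSC and ESC samples, which the choice did use, was 18, against 8.25% of all positions. The differentiated values in these counts are those that chose the assays, so the counts are descriptive. Medians over the 48 levels ran from 1.17 to 1.91 in the treated samples, from 0.43 to 1.85 in untreated iPSC and from 0.45 to 1.66 in ESC, against -2.78 to -1.49 in fibroblasts, -2.33 to -2.19 in islets and -5.44 to -4.71 in hepatocytes.

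Treated cells were then set against untreated iPSC. The untreated medians helped to choose the 48 for a high level, which can tilt this comparison towards lower values in treated cells, and the counts over the 48 are read with that limit. Of the 48, 26 were higher and 22 lower in treated cells, with a median log2 difference of 0.02, against -0.11 over the 284 assays tested, and the difference was smaller than 1 unit in 41. The share higher was 48.5% on plates A and B, against 43.6% of all assays tested there. It was 61.5% against 55.4% on plate C, and 2 of 2 against 30% on plate D. Limma called 0 of the 48 after Benjamini-Hochberg adjustment, and 2 had an unadjusted p under 0.05. Over all 284 assays 1 (0.352%) was called, C61, which is among the positions set aside, and 25 (8.8%) had an unadjusted p under 0.05. With clone as a block, 0 of the 284 were called, and 20 of the 48 were higher and 28 lower, with a median of -0.16. The 95% interval of the difference lay within 2 units, a 4-fold difference, for 16 of the 48. It did so for 1 of the 48 with clone as a block and for 5 without untreated clone 5, so larger changes are not excluded for most of the assays.

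Relative to RNU6, 46 of the 48 were higher in treated cells with a median difference of 1.64, but the median over all 284 assays moved likewise, to 1.68, and 0 were called, with 4 of the 48 and 35 of the 284 (12.3%) at an unadjusted p under 0.05. The recovered RNU6 Ct of replicate 1 of treated clone 3 on plate C stood apart, at 8.22 cycles, against -2.55 in its duplicate, on a scale with an arbitrary zero. The RNU6-based median of the 48 was 1.499 on plates A and B and 3.60 on plate C. Without that sample it was 1.51 on plates A and B, 0.87 on plate C and 1.42 over all 48, with 45 of the 48 higher and 0 calls. In the authors' deposited table for untreated against treated iPSC, 46 of the 48 values are positive, meaning less RNA in untreated cells. Of all 303 values there, 268 are positive. The median is 1.66 for the 48 and for all values. Treated and untreated cells also differed in feeders. Over the 24 assays that were highest in fibroblasts by the same thresholds, the median level ran from -2.29 to -1.35 in treated iPSC and from -2.64 to -1.54 in untreated iPSC, against 1.57 to 2.24 in fibroblasts, so that these ranges overlapped with and without feeders. Between 23 and 24 of the 24 had a Ct below 35 in treated iPSC, and 22 to 24 in untreated iPSC. The 24 were chosen with a fibroblast median at least 1 unit above those of untreated iPSC and ESC, both grown on feeders. They could therefore miss RNA carried over from feeders. The part of feeder RNA in these differences was not tested.

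**Figure D3:**
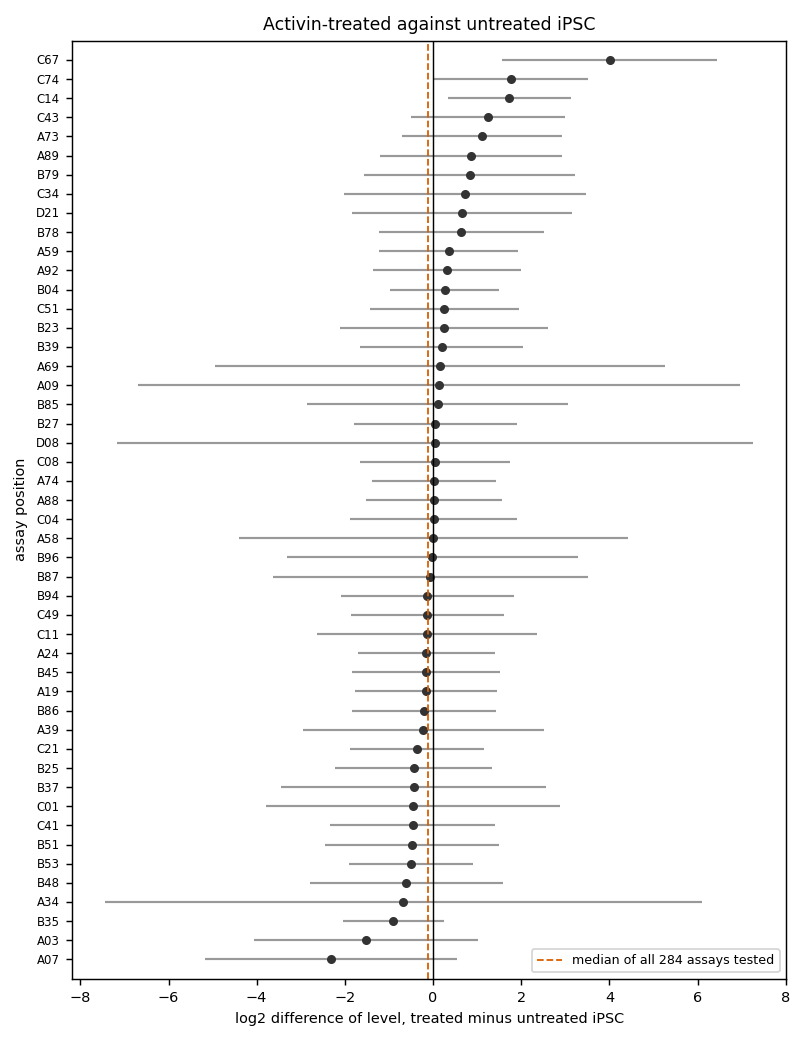
Log2 difference of level, treated minus untreated iPSC, for the 48 assays (points, limma) with 95% intervals (bars), ordered by size, and the median of all 284 assays tested (dashed line). Most points lie within 1 unit of 0, C67 stands apart at 4.01, and A07 and A03 are lowest at -2.32 and -1.53.

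C67 had the largest positive difference. Its Ct was 25.5, 23.02, 22.1 and 23.8 in treated iPSC, as above, against 30.8, 30.1, 30.3, 27.9 and 25.99 in untreated clones, and every treated sample lay below every untreated clone. The log2 difference was 4.01 (SE 1.17, 95% interval 1.57 to 6.45, limma adjusted p 0.0976). It did not pass the threshold in that fit, but did with the treated samples left unaveraged (adjusted p 0.0167) and with quantile normalization (adjusted p 0.0306). The unaveraged fit counts the 2 treated samples of a clone as separate replicates, so its p-value can be too small. With clone as a block the log2 difference was 5.18 (adjusted p 0.196), and relative to RNU6 7.56 (adjusted p 0.0848). Without the sample whose plate C RNU6 value stood apart, the RNU6-based value was 4.44 (adjusted p 0.628). Against their own untreated clone the treated samples were 5.10 and 4.03 units higher in clone 3, and 5.07 and 6.53 units higher in clone 2. Untreated clones 4 and 5 stood between, at 27.9 and 25.99 cycles, and ESC at 26.1 to 29.3, so C67 varied within pluripotent cells without treatment too.

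C74 and C14 also had higher values in treated cells, short of the threshold. C74 had 30.4, 29.98, 26.5 and 27.9 in treated iPSC, against no Ct, 31.3, 31.8, 30.3 and 31.1 in untreated iPSC, a log2 difference of 1.76 (SE 0.85, 95% interval -0.01 to 3.53, limma adjusted p 0.557). C14, singled out after its values were seen, had 25.3, 24.2, 21.04 and 22.4, against 28.9, 26.1, 27.5, 24.98 and 24.5, a difference of 1.73 (SE 0.67, 95% interval 0.33 to 3.14, limma adjusted p 0.364). Both treated samples of clone 3 were lower in Ct than those of clone 2 in each assay, and for C14 the lowest untreated clone, at 24.5, lay within the treated range. Against their own clone, all 4 treated samples were higher in 6 of the 48 assays, C67, C51, A73, C14, D21 and C74, and lower in 3, B35, C49 and B48. The shares over all positions were 10.8% and 17.8%. Ranges of all treated and all untreated samples did not overlap in 2 assays, C67 and A73, both higher in treated cells, and in 0 the other way, against 3.17% and 5.71% of all positions. A73, also named after its values were seen, had Ct values of 23.2, 22.8, 23.9 and 22.5 in treated iPSC, against 25.99, 25.6, 25.3, 25.8 and 24.5 in untreated iPSC.

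A07 and A03 had the largest negative differences, and each rested on 1 sample. A07 had 36, 23.6, 23.6 and 24.7 in treated iPSC, against 26.2, 24.8, 25.2, 25.3 and 26.6 in untreated iPSC, a log2 difference of -2.32 (SE 1.37, 95% interval -5.17 to 0.53, limma adjusted p 0.86). The value of exactly 36 is replicate 1 of clone 2, and without that sample the difference was 0.40. A03 had 20.1, 25.7, 18.9 and 19.4 in treated iPSC, against 21.3, 20.7, 20.97, 20.4 and 20.1 in untreated iPSC, a difference of -1.53 (SE 1.22, 95% interval -4.07 to 1.01, limma adjusted p 0.989). Here replicate 2 of clone 2, at 25.7 cycles, was later than every other pluripotent sample, and without it the difference was 0.01.

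The difference between untreated iPSC and ESC is given for the 48 as a description. The choice used the medians of both groups and asked for a high level in each, which limits how far they can differ, so the size of the differences is no sign of likeness. In the fit over the whole table, limma called 0 of the 273 assays tested, with an unadjusted p under 0.05 in 20 (7.33%), 5 of them among the 48. In 33 of the 48 iPSC were higher and in 15 lower, with a median log2 difference of 0.18, against 0.06 over all 273. The share higher was 75.8% on plates A and B, against 57.1% of all assays tested there. It was 53.8% against 47.5% on plate C, and 1 of 2 against 66.7% on plate D. Leaving out 1 sample at a time gave medians from 0.04 to 0.49, with 26 higher and 22 lower without replicate 1 of D3, and the highest median without untreated clone 5. The median absolute difference was 0.38. The widest intervals were those of A34, A09 and D08, whose variance in the shared fit includes the early hepatocyte and fibroblast values given above.

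Those 5 assays lay on both sides of 0. B35 and C51 had positive differences. B35, whose values are given above, had a log2 difference of 1.54 (SE 0.40), and C51, named after its values were seen, had 1.59 (SE 0.59). A88, C11 and A89 had negative ones, with A88 at -1.35 (SE 0.53) and C11 at -2.23 (SE 0.86). A89 had 27.6, 27.8, 28.6 and 28.8 in treated iPSC, against 28.9, 32.6, 28.3, no Ct and no Ct in fibroblasts, 29.4, 27.97 and 31.03 in islets and no Ct, 35.5 and 36 in hepatocytes. It had 31.9, 29.8, 28.8, 32.01 and 28.9 in untreated iPSC, against 27.9 to 28.7 (median 28.2) in the 6 ESC samples, a difference of -2.11 (SE 0.72). The ESC values of A89 lay within 1 cycle of each other, whereas clones 1 and 4 were near 32 and clones 2, 3 and 5 between 28.8 and 29.8.

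**Figure D4:**
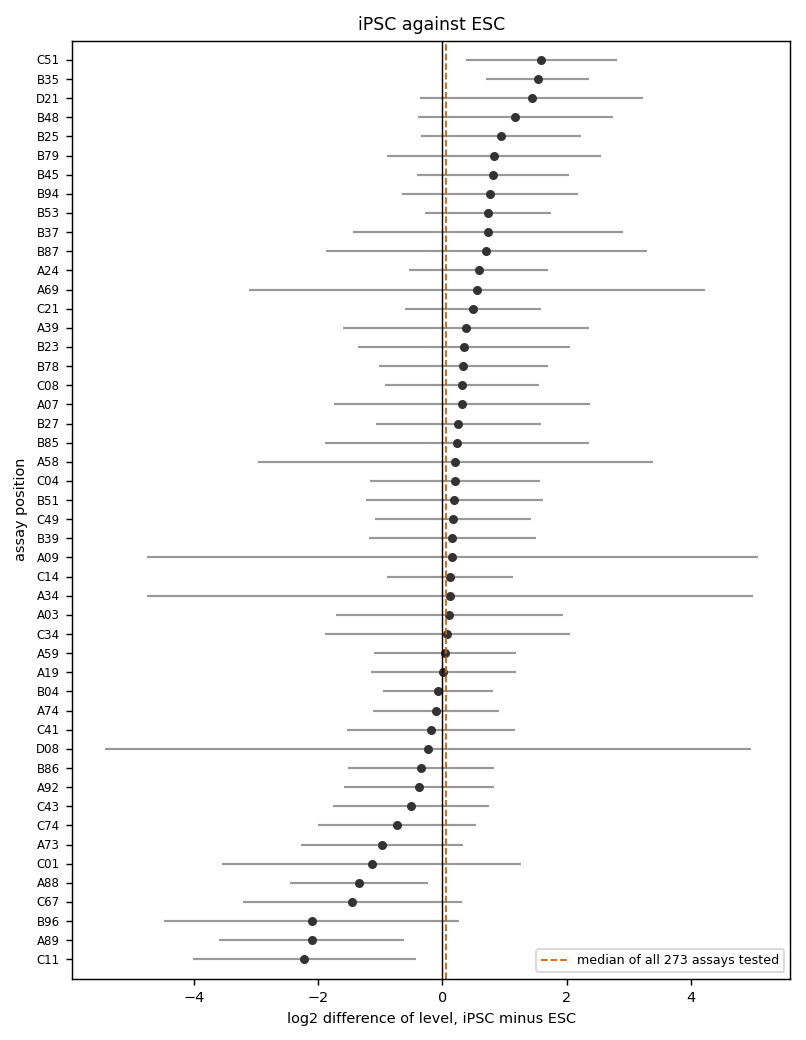
Log2 difference of level, iPSC minus ESC, for the 48 assays (points, limma) with 95% intervals (bars), ordered by size, and the median of all 273 assays tested (dashed line). The points run from -2.23 at C11 to 1.59 at C51, and 38 of the 48 lie within 1 unit of 0.

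The ESC lines are likewise described, since all 6 ESC samples entered the choice. Over the whole table limma called 0 of 273 assays, with an unadjusted p under 0.05 in 3 (1.1%), 0 of them among the 48. D3 was higher in 13 of the 48 and lower in 35. The share higher was 30.3% on plates A and B, against 43.4% of all assays tested there. It was 15.4% against 44.4% on plate C, and 1 of 2 against 26.3% on plate D. The median log2 difference of the 48 was -0.56, against -0.12 over all assays. This median was -0.23 without replicate 1 of D3, whose median level over the 48 was the lowest of the ESC samples at 0.45. The widest positive differences came with late or missing values in R1. A69 had Ct values of 27.2, 27.04 and 26.1 in D3, against 27.2, 32.3 and 35.2 in R1, a difference of 3.92 (SE 2.38), which ran from 1.90 without replicate 3 of R1 to 6.09 without replicate 1 of R1. D21 had 27.7, 27.3 and 27.7 in D3, against no Ct, 27.5 and 27.8 in R1, a difference of 1.93 (SE 1.16), and without the R1 sample that lacked a Ct it was -0.13.

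The responses of clones 3 and 2 were then set side by side, each against a single untreated sample that had entered the choice. In clone 3 the median change of the 48 was -0.59, against -0.55 over all positions, and in clone 2 it was 0.20, against -0.11. Treated samples lay below their untreated sample in clone 3 and above it in clone 2 for 16 of the 48, against 20% of all positions. The opposite held for 4, against 11.7% of all positions. For the difference of the responses, clone 3 minus clone 2, limma called 0 of the 48 and 0 of 284 assays, with an unadjusted p under 0.05 for 1 of the 48 and 11 (3.87%) of the 284. The median log2 difference of the 48 was -0.83, against -0.18 over all 284. Relative to RNU6 the median of the 48 was -0.19 on plates A and B and 6.14 on plate C, where replicate 1 of treated clone 3 has the RNU6 value that stood apart, and 0.39 when pooled, against 1.71 over all 284, with 1 assay called (0.352%) and 8 (2.82%) at an unadjusted p under 0.05, 0 of the 48 in either count. Without that sample it was -0.25 on plates A and B, 0.04 on plate C and -0.12 when pooled, against 0.83 over all assays. On the mean Ct scale the 95% intervals had a median half-width of 4.01 units and lay within 2 units for 0 of the 48.

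A88 had the unadjusted p under 0.05. Its treated samples differed from the untreated one by -0.85 and -1.18 units in clone 3, and by 2.55 and 1.72 units in clone 2, a difference of -3.15 (SE 1.40, 95% interval -6.08 to -0.22, limma adjusted p 0.946). The widest estimates were those of A69, at -6.48 (SE 5.13, 95% interval -17.23 to 4.26, limma adjusted p 0.995), and A07, at 4.81 (SE 3.98, 95% interval -3.52 to 13.15, limma adjusted p 0.995). For A69 replicate 1 of treated clone 3 stood at 34.6 cycles, against 24.5 in replicate 2, and without replicate 1 the difference was -1.89. For A07 it was -0.63 without the sample at 36.

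**Figure D5:**
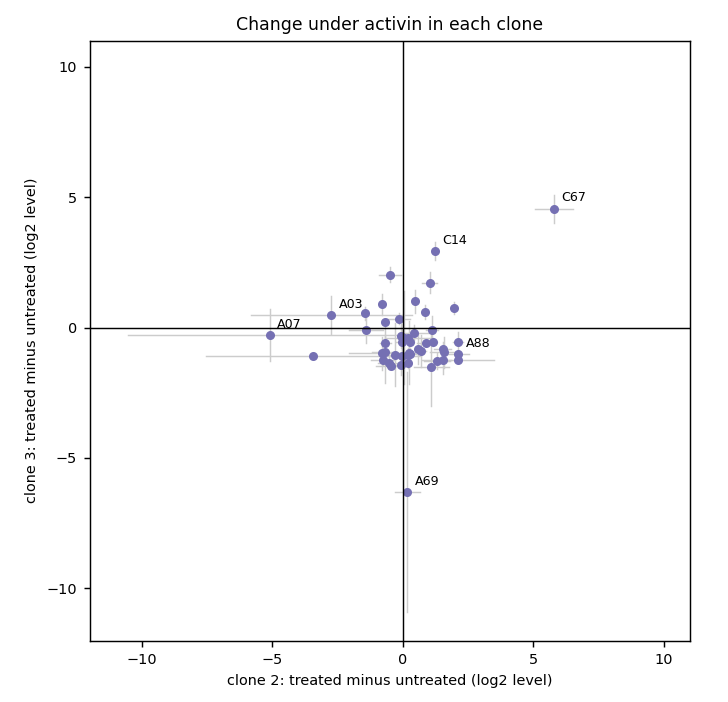
Change of log2 level under activin, treated minus the untreated sample of the same clone, in clone 3 (vertical axis) against clone 2 (horizontal axis) for the 48 assays, with points at the mean of the 2 treated samples and grey lines joining those samples. C67 is high in each clone (4.56 in clone 3 and 5.80 in clone 2), and the long lines of A07, A69, C01 and A03 show a single treated sample far from its duplicate.

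Single late or missing values set the spread of several assays. The SD of level among untreated clones ran from 0.30 for A34 to 4.51 for A69, with a median of 0.93, the same as over all positions, and medians were 0.68 in treated iPSC and 0.78 in ESC. A69 had 24.5, 24.98, 34.6 and 24.5 in treated iPSC, 26.02, 25.5, 24.5, 32.2 and 34.3 in untreated iPSC and, in differentiated cells, 30.5, 33.7, 28, 35.7 and 34.6 in fibroblasts, 21.3, 27.8 and 29.7 in islets and 32.6, 33.3 and 31.7 in hepatocytes. Its values fell into an early set near 25 cycles and a late set above 32 in treated iPSC, untreated iPSC and, with 26.1 to 27.2 for the early set, in ESC. B96 had 26.01, 26.3, 28.6, 36 and 26.3 in untreated iPSC, where clone 4 is at exactly 36, and C01 had 31.1, 21.9, 21.4 and 22.1 in treated iPSC and 25.7, 23.2, 23.5, 22.3 and 30.9 in untreated iPSC, with 1 late sample in each group. C74 lacked a Ct in clone 1 and D21 in replicate 1 of R1. D21 otherwise had 25.6, 25.2, 23.6 and 25.2 in treated iPSC and 26.1, 25.6, 28.8, 28.1 and 27.2 in untreated iPSC, against 28.2, 30.5, 25.8, 30.2 and 35.4 in fibroblasts, 32.5, 31.8 and 31.3 in islets and 31.6, 38.2 and 35 in hepatocytes. Leaving out in turn each of the 22 samples behind the medians of the choice, 34 of the 48 assays met the thresholds every time. A39 met them least often, 12 times.

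The 48 assays were spread over the plates. They made up 15 of 96 positions on plate A (15.6%), 18 of 96 on B (18.8%), 13 of 95 on C (13.7%) and 2 of 28 on D (7.14%). Neighbouring positions formed 5 short runs with 11 assays, A58 and A59, A73 and A74, A88 and A89, B78 and B79, and B85 to B87. B78 and B79 adjoin the run B71 to B77 that was set aside. Within the pairs the levels were unlike: A88 had a median level of 1.12 in untreated iPSC and A89 -2.99, while A58 and A59 had 6.26 and 4.53. How the positions map to genes is not analysed here.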

How the data were processed

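Raw Ct values for 315 assay positions in 26 samples were deposited by the authors, and 950 of the 8190 values (11.6%) are missing. Values in the authors' deposited table are on the log2 scale, as differences between groups of Ct normalized to RNU6. Least squares on both tables recovered the RNU6 Ct per sample and plate set, up to a constant, with a largest residual of 4.0e-09 cycles. This recovery was tested on simulated data. Depth is not defined for RT-qPCR, and precision falls at late Ct.

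Reference means were taken per plate set (A with B 87 assays, C 26, D 9). An assay was tested when 50% or more of the samples in 1 group of a comparison were below 35, with limma 3.58.1 (lmFit, eBayes, two-sided) in R 4.3.3, in 1 fit over all groups, after averaging the 2 treated samples of a clone, with Benjamini-Hochberg adjustment over all assays tested and a threshold of 0.05. Unaveraged samples entered the fit of the clone difference. The script was tested on simulated data.

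The 48 assays and all tests were chosen with earlier results of these data known. Values in every sample, with ESC as a range and median, are given by rule for the 8 largest gaps, the extremes of each comparison and the assays next to the threshold, and the other assays named were picked after their values were seen. The labels give the clone of each treated sample, which pairs it with an untreated one. Same-numbered D3 and R1 samples had correlations of deviations from -0.13 to 0.19 and those of iPSC and ESC from -0.28 to 0.10, so these numbers were not taken to pair samples. No samples shared identical values at 10 or more positions. Alternatives covered the reference, the limit, the filter, the samples in the fit, the block and each replicate. The plots were drawn with matplotlib 3.10.9.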

Additional observations from a re-analysis of the deposited data

Results flagged for a closer look

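Within the 5 untreated iPSC clones and the 5 fibroblast samples, 9 of 96 groups held a level that stood farther from the nearest other sample, relative to the group's range, than Dixon's 95% critical value allows. Chance flags about 5% of groups if the groups are independent and their levels normally distributed. Here the groups share samples, and late or missing Ct values were set to the limit, so 5% is a rough guide only. The check covered the selected assays alone. Whether other positions hold such levels as often was not tested. Among fibroblasts, D08 had a level of 21.23 in replicate 4, against -0.24 to 1.87 in the others, from a raw Ct of 2.74. C51 was at -6.47 in replicate 1, against -3.97 to -3.10, and B37 at -8.26 in replicate 2, which had no Ct, against -2.15 to -0.14. Among untreated iPSC, clone 5 was low for C04 (-1.98, against 0.35 to 1.00), B04 (2.64, against 3.55 to 3.80) and C01 (-4.93, against 2.57 to 3.96). Clone 2 was low for A74 (3.08, with 4.23 the highest of the others) and A59 (2.93, against 4.17 to 4.62), and clone 1 for A92 (2.58, against 4.31 to 4.70).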

How the results depend on the processing

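Of the 48 assays, 40 met the thresholds with a limit of 32, all 48 with a limit of 40, 37 with 1 mean Ct over all plates, 34 with quantile normalization, 45 with Ct values below 14 set to 35 (an alternative chosen after seeing the data) and 44 to 48 without each sample in turn. For activin, the 1 call over all assays became 0 with 1 mean Ct over all plates, relative to RNU6, without a filter and with clone as a block. It became 2 with a limit of 32, with the groups of the comparison only and with a reference mean without the 48 (also chosen after seeing the data). It became 3 with quantile normalization and with a Ct below 35 in every sample, and 4 with late and missing values left out and with treated samples unaveraged, and it ranged from 0 to 5 without each replicate, the 5 when replicate 1 of treated clone 3 was omitted. It was 2 when the same replicate of clone 2 was omitted, and 0 when the other one, or any untreated clone, was. Calls among the 48 were 1, C67, with quantile normalization and with unaveraged samples, and 0 otherwise. Unaveraged samples count the 2 of a clone as separate replicates. The median difference of the 48 was 1.64 relative to RNU6 and -0.22 to 0.14 without each replicate. Relative to RNU6 without the treated clone 3 sample whose reference stood apart (chosen after seeing the data), there were 0 calls and the median was 1.42. For iPSC against ESC, quantile normalization gave 2 calls, 1 among the 48 (C11), and the groups of the comparison only gave 1, and the median of the 48 ran from 0.04 to 0.49 without each replicate. A block by replicate number, which does not pair these samples, gave 0 calls there and for D3 against R1, as the fits without it did. With that block the medians of the 48 were 0.29 and -0.56. For D3 against R1 the median of the 48 ran from -0.64 to -0.23 without each replicate. For the clone difference, 1 assay was called relative to RNU6 and without a filter, 3 with these groups only, and 0 to 2 without each replicate, with a median of the 48 of 0.39 relative to RNU6, -0.12 without the sample whose RNU6 reference stood apart, and -1.22 to -0.75 without each replicate. Where a count moved, the cause was not tested, except that a filter changes how many assays are tested. The limit of 35 bounds every level near it, so fold differences against groups without a Ct below 35 are set by that choice.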
